A study of Mus musculus with 22 samples.

Results

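The genes described here are 10 segments of the γδ T-cell receptor: the γ variable segments Tcrg-V1, Tcrg-V3, Tcrg-V4, Tcrg-V5, Tcrg-V6 and Tcrg-V7, the γ constant segments Tcrg-C1, Tcrg-C2 and Tcrg-C4, and the δ variable segment Trdv1. They were picked by name, not by their values, from a gene count table whose Ensembl identifiers were matched to mouse gene symbols, and all 10 were found among its 37620 entries. Segment numbers follow the mouse gene symbols, which for the γ variable segments use the numbering of Heilig and Tonegawa. Other published schemes give the same segments other numbers. The γ segments lie on chromosome 13 and Trdv1 lies on chromosome 14.

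A γδ T cell joins a γ variable segment to a joining segment and reads on into the constant segment of the same cluster, and its δ chain is built in the same way from variable, diversity and joining segments. Tcrg-V4, Tcrg-V5, Tcrg-V6 and Tcrg-V7 lie in the cluster of Tcrg-C1, Tcrg-V1 lies in the cluster of Tcrg-C4, and Tcrg-V3 lies in a cluster with Tcrg-C3. Mouse γδ T cells of different sites use different segments: Tcrg-V5 marks those of the epidermis, Tcrg-V6 those of mucosa and dermis that make interleukin 17, Tcrg-V7 those of the gut epithelium, and Tcrg-V1 and Tcrg-V4 those of lymphoid organs. αβ T cells can carry rearranged γ genes too, since both lineages develop from common thymic precursors, and the δ genes lie inside the α locus, so that joining of α segments deletes them.

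The study profiled RNA of 11 sorted lymphocyte populations, taken from mammary tumours of female C57BL/6 mice, aged 20 to 24 weeks, that carry the PyMT transgene, an oncogene of the polyomavirus. Tumours of several mice were pooled, every population comes from tumour, and the labels do not name the promoter that drives the transgene. Each population has 2 libraries, which the labels do not tie to separate animals, so p-values measure the spread between libraries only. The γδ populations are TCRgd+ILTC1, type 1 innate-like T cells, and TCRgd+NK1.1-, which lack the NK-cell marker NK1.1. The αβ populations are TCRab+ILTC1, TCRb+CD8a+NK1.1-, TCRb+CD8a+NK1.1+, TCRb+CD8a+PD1+, TCRb+CD8a+PD1-NK1.1- and TCRb+CD8a-NK1.1+. TCR-NK1.1+ cells are labelled as lacking the receptor, and the labels of ILC1l, type 1-like innate lymphoid cells, and cNK, conventional natural killer cells, name no receptor.

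How far reads can tell the segments apart depends on their sequence, and stretches of them are shown first. For each γ variable segment these are the last 60 coding bases, 5′ to 3′, with the codon of the cysteine that opens the hypervariable joint in capitals, from the GENCODE M21 transcripts of build GRCm38.
Tcrg-V1: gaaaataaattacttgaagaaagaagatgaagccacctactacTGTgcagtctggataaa
Tcrg-V3: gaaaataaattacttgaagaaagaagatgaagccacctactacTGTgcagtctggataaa
Tcrg-V4: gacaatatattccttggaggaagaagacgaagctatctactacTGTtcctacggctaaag
Tcrg-V5: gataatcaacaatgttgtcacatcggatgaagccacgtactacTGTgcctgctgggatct
Tcrg-V6: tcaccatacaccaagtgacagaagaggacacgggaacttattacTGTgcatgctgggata
Tcrg-V7: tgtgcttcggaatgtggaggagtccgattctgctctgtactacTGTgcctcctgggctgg
Tcrg-V1 and Tcrg-V3 end in the same 60 bases and are identical at 95.7% of 347 aligned coding bases, and 20.9% of the 50-base windows of Tcrg-V1 occur unchanged in Tcrg-V3. Every other pair of these variable segments was identical at 53.1% to 69.4% of bases and had no 50-base window in common. Values of Tcrg-V1 and Tcrg-V3 are therefore uncertain where counting could split reads between them, whereas Tcrg-V4, Tcrg-V5, Tcrg-V6 and Tcrg-V7 differ enough to be counted apart.

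The constant segments are shown by their first 60 coding bases, 5′ to 3′ and from the same source, with each base that differs from Tcrg-C1 in capitals.
Tcrg-C1: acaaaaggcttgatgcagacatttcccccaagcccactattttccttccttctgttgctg
Tcrg-C2: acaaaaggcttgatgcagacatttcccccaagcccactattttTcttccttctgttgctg
Tcrg-C4: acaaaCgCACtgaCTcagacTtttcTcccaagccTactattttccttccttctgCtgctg
Tcrg-C2 has 1 capital and Tcrg-C4 has 10. Over the whole coding part Tcrg-C1 and Tcrg-C2 were identical at 97.4% of bases and Tcrg-C1 and Tcrg-C4 at 76.9%, and 17.9% of the 50-base windows of Tcrg-C1 occur in Tcrg-C2, against 0% in Tcrg-C4. Tcrg-C3 was identical to Tcrg-C1 at 96.8% and to Tcrg-C2 at 96.7% of bases, and 25.7% and 19.2% of its 50-base windows occur in them. The split of reads among Tcrg-C1, Tcrg-C2 and Tcrg-C3 is uncertain for the same reason.

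Library totals ran from 8696335 counts in TCRgd+NK1.1- replicate 1 to 20602715 in TCRab+ILTC1 replicate 1. Levels are given as CPM, counts scaled to a library of 1e+06 counts with TMM factors, and 3 counts in a library equalled 0.146 to 0.312 CPM. The joining segment Trdj1, which is joined only in δ chains, had 88.2 and 128 CPM in TCRgd+ILTC1 and 84.1 and 63.3 CPM in TCRgd+NK1.1- cells, and at most 3.76 CPM in any other library, as the 2 γδ labels state. Cd3e, a chain of the CD3 complex that carries both kinds of receptor, was uneven where no receptor is labelled. It had 216 and 437 CPM in TCR-NK1.1+, 85.8 and 458 CPM in ILC1l and 0.618 and 6.08 CPM in cNK cells. Whether it came from T cells in these libraries was not tested. Genes of other cells were found in some libraries: 19 myeloid genes summed to 8157 and 18880 CPM in TCRgd+NK1.1- cells and to 203 to 1749 CPM elsewhere. The sum of 16 mammary epithelial genes was 3686 and 1962 CPM in TCRgd+NK1.1-, 6421 and 3625 CPM in TCR-NK1.1+, 1435 and 2644 CPM in TCRb+CD8a+NK1.1- and 4011 and 328 CPM in TCRb+CD8a-NK1.1+ cells, and 22.1 to 117 CPM elsewhere.

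The first question was how RNA of the segments differed between the 2 γδ populations. Counts per gene do not show whether a segment was joined or its chain was made, so levels and shares are not receptor use. Tcrg-V6 set them apart: among the γ variable segments analysed it was the highest in TCRgd+NK1.1- cells, and it was nearly missing from TCRgd+ILTC1 cells. Tcrg-V6 had 4.04 and 3.00 CPM in TCRgd+ILTC1 cells, against 175 and 86.4 CPM in TCRgd+NK1.1- cells. Both TCRgd+NK1.1- libraries stood far above all 20 others, in which the segment reached at most 6.27 CPM. The log2 fold change of TCRgd+ILTC1 over TCRgd+NK1.1- was −5.23 ± 0.84 (SE), that is 37.5-fold lower, with an adjusted p of 0.0263 by the quasi-likelihood test of edgeR, adjusted over all genes after Benjamini and Hochberg. It was the 1 of the 10 segments that passed the threshold of 0.05, where 1.59% of 16828 genes were called, 0.921% lower and 0.671% higher. The call was lost without TCRgd+ILTC1 replicate 1 (adjusted p = 0.122) or replicate 2 (0.237), while the log2 value stayed at −5.53 and −5.03. The myeloid and epithelial sums above moved with this comparison too, at 287 and 299 CPM (myeloid) and 40.0 and 30.4 CPM (epithelial) in TCRgd+ILTC1 cells. Of these genes 6 of 19 and 5 of 15 tested were called lower in TCRgd+ILTC1 cells and none higher, and their part in the result was not tested.

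Tcrg-V4 was the leading variable segment, among those analysed, of TCRgd+ILTC1 cells. It had 251 and 280 CPM in TCRgd+ILTC1 cells, against 89.1 and 74.1 CPM in TCRgd+NK1.1- cells. The groups did not overlap, and TCRgd+ILTC1 had the highest level of all 11 populations, but the log2 fold change of 1.68 ± 0.67 did not pass the test (adjusted p = 0.234, edgeR). Tcrg-V1, from the Tcrg-C4 cluster, had 84.9 and 83.7 CPM in TCRgd+ILTC1 cells, against 41.4 and 39.7 CPM in TCRgd+NK1.1- cells. Its libraries were close within each population and apart between them, with a log2 fold change of 1.03 ± 0.40 (adjusted p = 0.226).

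Tcrg-V7, the segment of gut epithelial γδ T cells, had 77.0 and 109 CPM in TCRgd+ILTC1 cells, against 21.9 and 65.8 CPM in TCRgd+NK1.1- cells. The 2 TCRgd+NK1.1- libraries were far apart, and the higher one came close to the lower TCRgd+ILTC1 library (log2 fold change 1.04 ± 0.71, adjusted p = 0.482). Tcrg-V3, the near copy of Tcrg-V1, had 66.7 and 51.1 CPM in TCRgd+ILTC1 and 23.9 and 17.0 CPM in TCRgd+NK1.1- cells (adjusted p = 0.309). Tcrg-V5, the epidermal segment, stayed low, with 8.16 and 2.55 CPM in TCRgd+ILTC1 and 15.7 and 5.24 CPM in TCRgd+NK1.1- cells, and the groups overlapped. The 10 segments had a median log2 fold change of 0.96, against −0.13 over all genes tested. The median of 4 CD3 complex genes was 0.82, with none of them called. How far the segments moved beyond T-cell RNA as a whole was not tested.

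**Figure D1:**
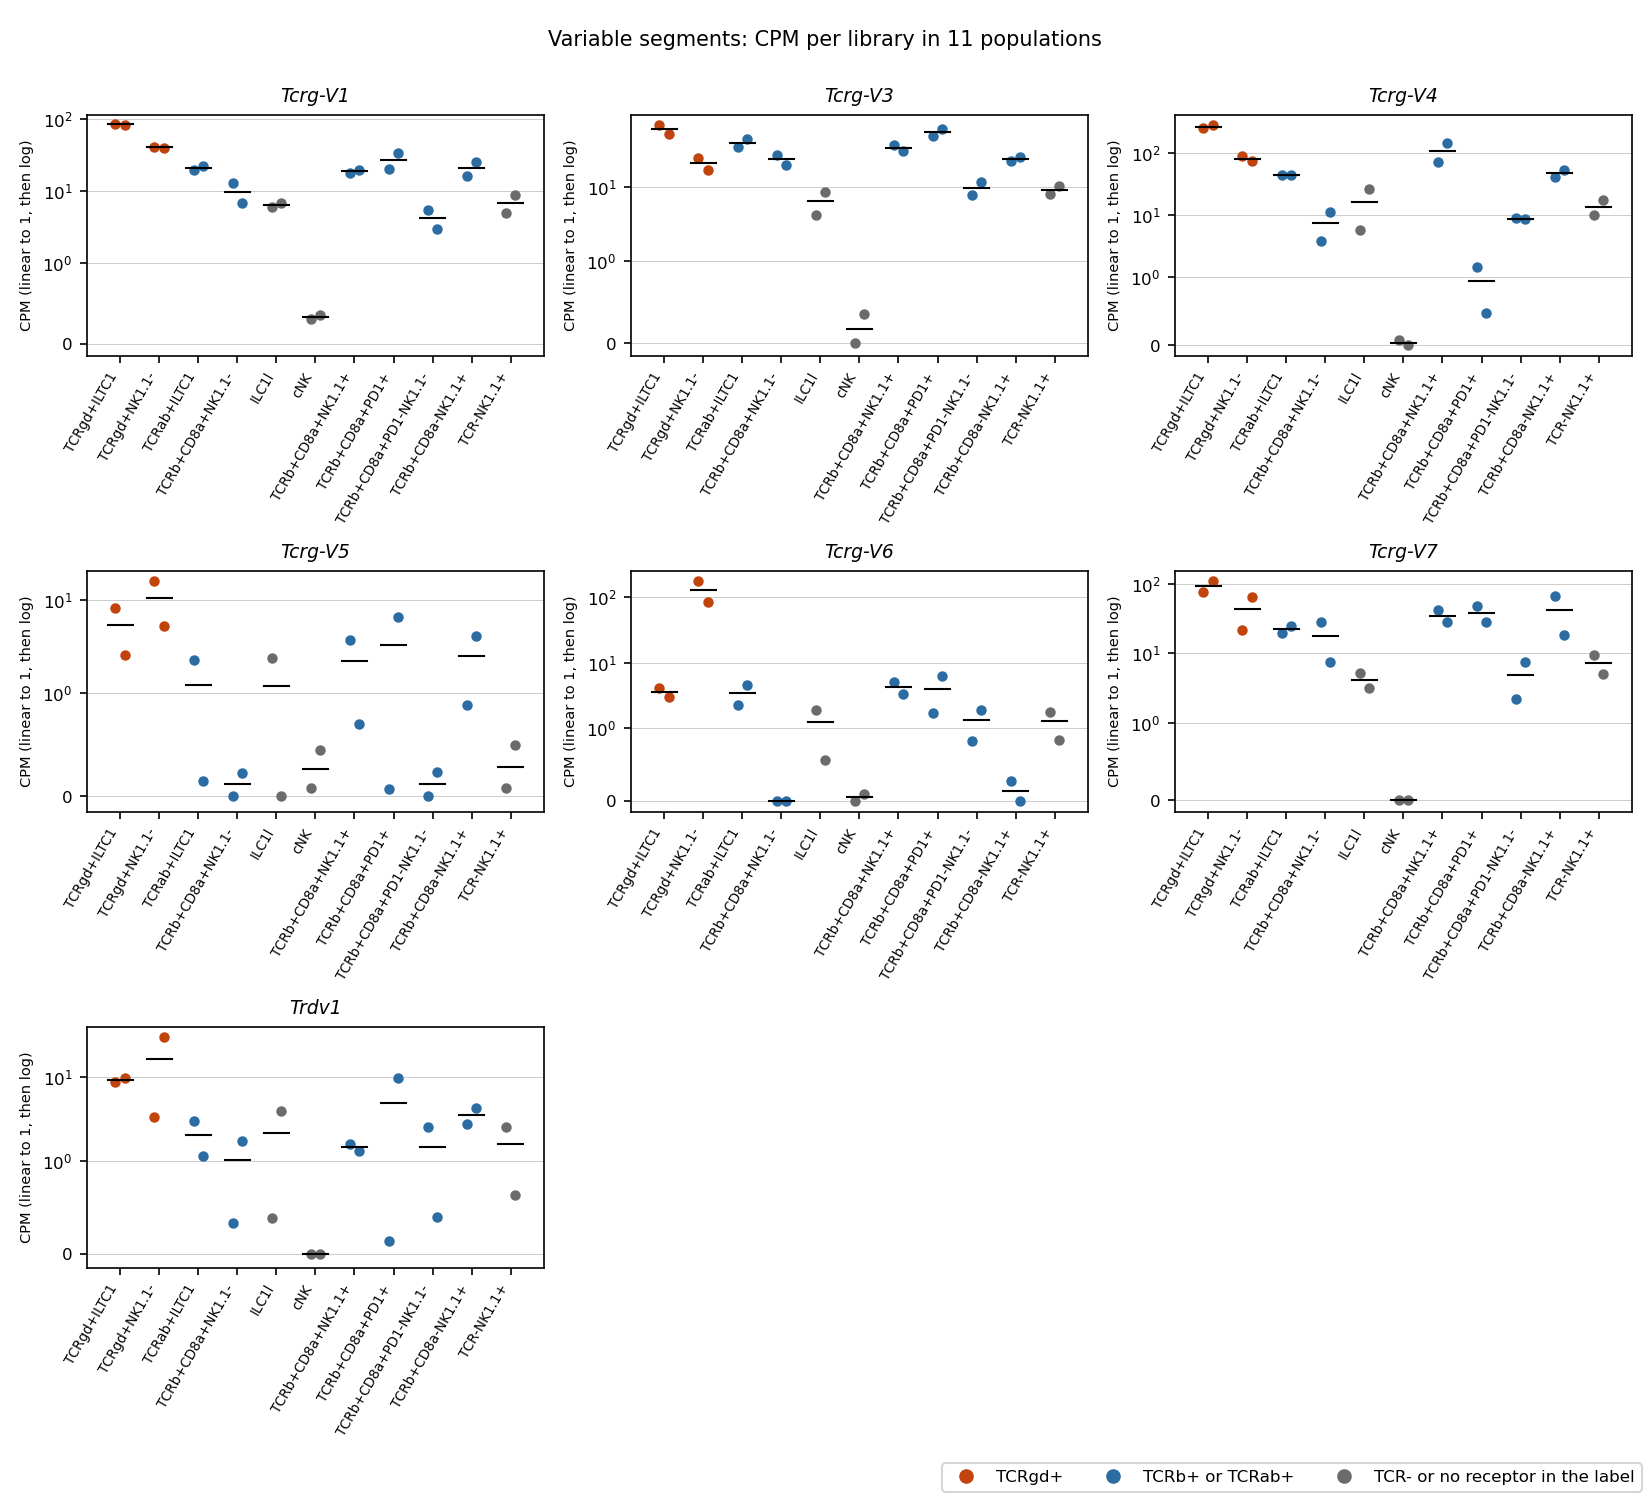
CPM (axis linear up to 1, logarithmic above) of the 6 γ variable segments and Trdv1 in each of 2 libraries (points) of 11 populations, with the population mean as a bar. Tcrg-V6 stands at 175 and 86.4 CPM in TCRgd+NK1.1- cells and at or below 6.27 CPM in every other library.

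As shares of the counts on the 6 variable segments, which differ little in length (341 to 426 bases), the 2 populations were composed differently. Tcrg-V2 was not analysed here, so these are not shares of all γ variable segments. Tcrg-V4 made up 51.1% (95% Wilson interval 49.9 to 52.3) and 52.9% (51.7 to 54.1) of the 6691 and 7045 variable counts of TCRgd+ILTC1 cells, against 24.3% (22.9 to 25.7) and 25.7% (24.4 to 27.0) of the 3529 and 4452 counts of TCRgd+NK1.1- cells. Tcrg-V6 made up 0.822% (0.632 to 1.07) and 0.568% (0.417 to 0.772) in TCRgd+ILTC1 cells, against 47.7% (46.1 to 49.4) and 30.0% (28.7 to 31.3) in TCRgd+NK1.1- cells. Between the 2 TCRgd+NK1.1- libraries the share of Tcrg-V7 ran the other way, at 5.95% and 22.8%, so that replicate 2 held less Tcrg-V6 and more Tcrg-V7. With Tcrg-V3 left out, because it shares sequence with Tcrg-V1, Tcrg-V4 took 59.1% and 58.6% in TCRgd+ILTC1 and Tcrg-V6 took 51.1% and 31.9% in TCRgd+NK1.1- cells. The intervals cover counting error only, since PCR copies carry no molecular identifiers.

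**Figure D2:**
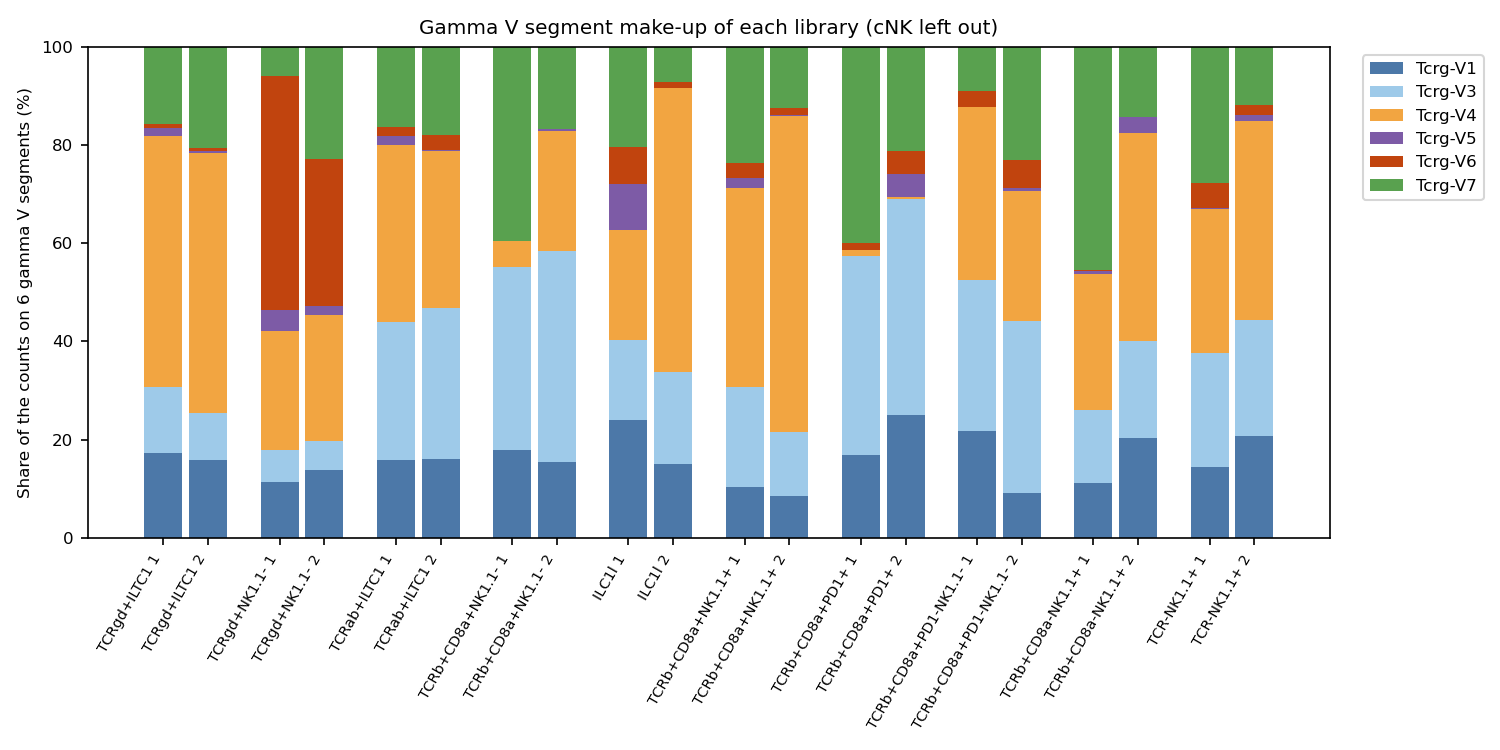
Share (%) of each of 6 γ variable segments in the variable-segment counts of every library, population by population. Tcrg-V6 takes 47.7% and 30.0% in TCRgd+NK1.1- cells and Tcrg-V4 takes 51.1% and 52.9% in TCRgd+ILTC1 cells. cNK cells are left out because they had 6 and 14 such counts.

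Per kilobase of transcript, Tcrg-V4 reached 590 and 657 CPM in TCRgd+ILTC1 cells, where Tcrg-V1 reached 227 and 224 and Tcrg-V7 209 and 296. In TCRgd+NK1.1- cells Tcrg-V6 reached 413 and 204 CPM per kilobase, next to 209 and 174 for Tcrg-V4 and 59.4 and 179 for Tcrg-V7. On this scale Tcrg-V6 led in both TCRgd+NK1.1- libraries, but the 3 segments were close in replicate 2.

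None of the constant segments passed the test of edgeR between the 2 γδ populations. Tcrg-C1, which serves 4 of the variable segments, had 469 and 634 CPM in TCRgd+ILTC1 cells, against 546 and 340 CPM in TCRgd+NK1.1- cells. The libraries overlapped, with a log2 fold change of 0.30 ± 0.36 (adjusted p = 0.739, edgeR). Tcrg-C4, which serves Tcrg-V1, had 423 and 413 CPM in TCRgd+ILTC1 cells, against 196 and 174 CPM in TCRgd+NK1.1- cells. These groups were apart, with a log2 fold change of 1.15 ± 0.30 (adjusted p = 0.0904), which DESeq2 called with an adjusted p of 0.0126. Tcrg-C2 had 549 and 600 CPM in TCRgd+ILTC1 and 265 and 339 CPM in TCRgd+NK1.1- cells (log2 fold change 0.90 ± 0.57, adjusted p = 0.452). The ratio of Tcrg-C1 to Tcrg-C4 counts was 1.11 and 1.54 in TCRgd+ILTC1 and 2.79 and 1.96 in TCRgd+NK1.1- cells, higher in both TCRgd+NK1.1- libraries.

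Constant segments were not limited to γδ cells. Tcrg-C2 was highest in an αβ population, TCRb+CD8a+PD1+, at 1101 and 1264 CPM, followed by TCRb+CD8a+NK1.1+ at 774 and 648 CPM and only then by TCRgd+ILTC1. Those 3 populations did not overlap one another. Tcrg-C2 took 54.6% to 73.8% of the counts on the 3 constant segments in αβ libraries, against 26.4% to 39.8% in the 4 γδ libraries. Tcrg-C4 was as high in TCRb+CD8a+PD1+ cells, at 435 and 370 CPM, as in TCRgd+ILTC1 cells, and these overlapped. Tcrg-C1 separated the lineages: the 4 γδ libraries had 340 to 634 CPM, above the highest αβ library, which was TCRb+CD8a+NK1.1+ replicate 2 with 297 CPM. In cNK cells all 3 were low, with 1.47 and 2.20 CPM of Tcrg-C1, 0.850 and 2.03 of Tcrg-C2 and 8.66 and 11.7 of Tcrg-C4. Levels here span both sets of libraries and the order was not tested across them.

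**Figure D3:**
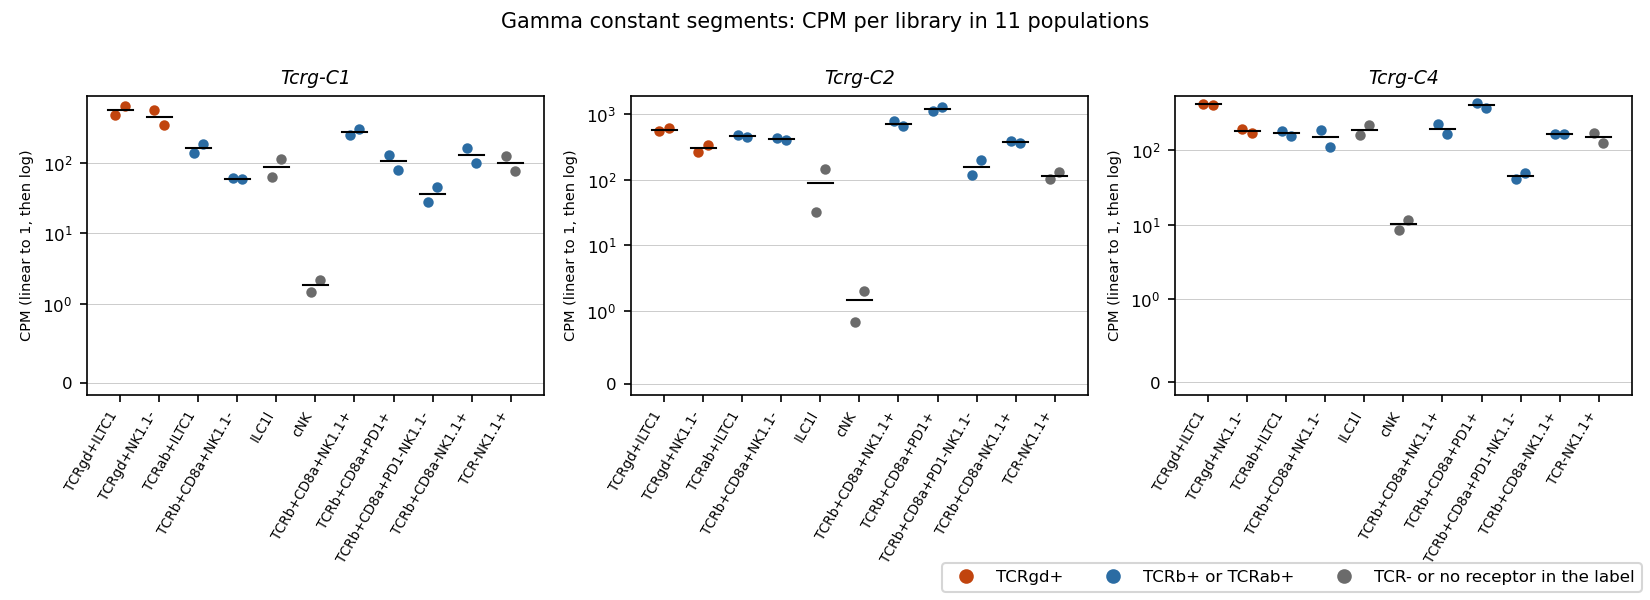
CPM (axis linear up to 1, logarithmic above) of Tcrg-C1, Tcrg-C2 and Tcrg-C4 in each of 2 libraries (points) of 11 populations, with the population mean as a bar. Tcrg-C2 is highest in TCRb+CD8a+PD1+ cells (1101 and 1264 CPM), whereas Tcrg-C1 is highest in the γδ populations.

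Levels were also set against CD3 counts of the same library. Counts on the 6 variable segments per 100 counts on Cd3d, Cd3e and Cd3g were 12.5 and 11.9 in TCRgd+ILTC1 and 13.0 and 18.7 in TCRgd+NK1.1- cells. In the other 18 libraries they were 0.684 to 4.80. For the constant segments the same ratio was 36.6 and 37.1 in TCRgd+ILTC1 and 35.7 and 55.3 in TCRgd+NK1.1- cells, within the range of 5.17 to 62.6 over the others. The upper end of that range came from cNK cells, with 227 and 349 CD3 counts in all.

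The next comparison set γδ against CD8+ αβ T cells, both without NK1.1. In TCRgd+NK1.1- over TCRb+CD8a+NK1.1- cells 2 of 10 segments were called higher and none lower, where 0.0357% of 16828 genes were called higher and 0.0416% lower. Tcrg-V6 had 1684 and 1335 counts in TCRgd+NK1.1- cells and 0 counts in both TCRb+CD8a+NK1.1- libraries. Set against 3 counts over both αβ libraries, it was at least 1240-fold higher (adjusted p = 0.0311, edgeR). Tcrg-C1 had 546 and 340 CPM in TCRgd+NK1.1- cells, against 60.8 and 57.8 CPM in TCRb+CD8a+NK1.1- cells. It was 7.44-fold higher, with a log2 fold change of 2.90 ± 0.38 (adjusted p = 0.0442). The groups were far apart for both segments.

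Other segments did not pass edgeR's test here. Tcrg-V4 had 89.1 and 74.1 CPM in TCRgd+NK1.1- cells, against 3.83 and 11.1 CPM in TCRb+CD8a+NK1.1- cells, with a log2 fold change of 3.44 ± 0.72 (adjusted p = 0.114). Tcrg-V1 had 41.4 and 39.7 CPM, against 12.8 and 6.98 CPM (log2 fold change 2.04 ± 0.42, adjusted p = 0.0991). Both pairs of libraries were apart. Tcrg-C2, Tcrg-V3 and Tcrg-C4 had log2 fold changes of −0.43 ± 0.57, −0.19 ± 0.69 and 0.30 ± 0.30. DESeq2 called 715 genes (5.07% of 14094) and 5 segments, adding Tcrg-V1, Tcrg-V4 and Tcrg-V5. The median over the 10 segments was 2.47, also with Tcrg-V6 set at its bound, against 0.14 over all genes. Both calls were lost without TCRb+CD8a+NK1.1- replicate 1 (adjusted p = 0.0654 for Tcrg-V6 and 0.166 for Tcrg-C1) or replicate 2 (0.113 and 0.288), and in a fit of these 4 libraries alone (0.42 each). Tcrg-C1 was also lost with RLE scaling (0.0531).

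The same question was asked among innate-like T cells. No segment passed in TCRgd+ILTC1 over TCRab+ILTC1, where edgeR called 0% of 16828 genes, with 570 genes and 5 of the 10 segments at an unadjusted p under 0.05. DESeq2 called 77 genes (0.528%) and 3 segments. Those 3 were Tcrg-V1, Tcrg-C1 and Tcrg-C4. Tcrg-V1 had 84.9 and 83.7 CPM in TCRgd+ILTC1 cells, against 19.4 and 22.5 CPM in TCRab+ILTC1 cells. Its log2 fold change was 2.01 ± 0.41 in edgeR (adjusted p = 0.804; 2.76e-05 by DESeq2). Tcrg-C1 had 469 and 634 CPM, against 135 and 181 CPM, with a log2 fold change of 1.80 ± 0.37 (adjusted p = 0.804; DESeq2 0.0053). Tcrg-V4 had 251 and 280 CPM in TCRgd+ILTC1 cells, against 44.3 and 44.9 CPM in TCRab+ILTC1 cells (log2 fold change 2.57 ± 0.69, adjusted p = 1). All 3 were apart in every library. By contrast Tcrg-V6 had 4.04 and 3.00 CPM in TCRgd+ILTC1 and 2.29 and 4.54 CPM in TCRab+ILTC1 cells, with overlap. The median over the 10 segments was 1.90, against 0.00 over all genes.

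**Figure D4:**
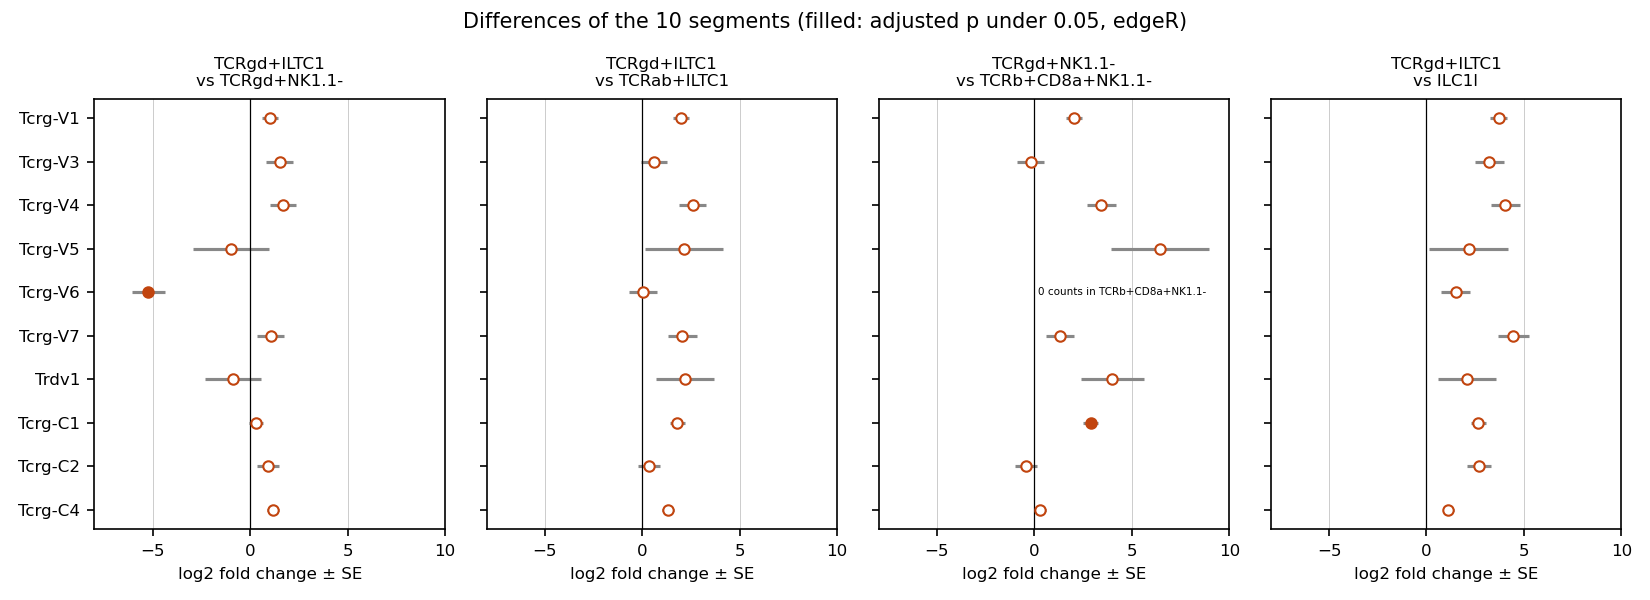
Log2 fold changes ± SE (edgeR) of the 10 segments in 4 comparisons, first-named population over the second, filled where the adjusted p was under 0.05. Tcrg-V6 lies at −5.23 between the γδ populations and Tcrg-C1 at 2.90 between the NK1.1- populations; Tcrg-V6 in the third panel has 0 counts in TCRb+CD8a+NK1.1- cells and is not drawn.

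αβ populations were themselves uneven in γ variable segments. Tcrg-V4 had 71.5 and 148 CPM in TCRb+CD8a+NK1.1+ cells, as high as in TCRgd+NK1.1- cells and overlapping them. It had 1.41 and 0.468 CPM in TCRb+CD8a+PD1+ cells, the lowest of the αβ populations and apart from all of them. TCRb+CD8a+PD1+ cells nonetheless had 20.1 and 33.9 CPM of Tcrg-V1, 48.5 and 59.7 CPM of Tcrg-V3 and 47.6 and 28.7 CPM of Tcrg-V7, among the higher αβ levels. These levels were not tested against one another. TCRb+CD8a+PD1-NK1.1- cells had the lowest sums over the variable segments among αβ cells, 24.8 and 33.0 CPM, though not the lowest level of each segment. Sums in other αβ libraries were 45.5 to 231 CPM, in TCRgd+ILTC1 cells 492 and 529 and in TCRgd+NK1.1- cells 367 and 288.

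Against cells without a receptor in their label, γδ segments were higher. In the mean of TCRgd+ILTC1 and TCRgd+NK1.1- over the mean of ILC1l and cNK, 8 of 10 segments were called higher and none lower, where 0.642% of genes were called higher and 0.386% lower. Tcrg-V1 was 40.3-fold higher (log2 fold change 5.33 ± 0.35, adjusted p = 0.000196, edgeR) and Tcrg-C1 39.8-fold (5.31 ± 0.31, 0.000196). Tcrg-C4 was 6.42-fold higher (2.68 ± 0.22, 0.000675). Its level in ILC1l cells, 162 and 220 CPM, overlapped that in TCRgd+NK1.1- cells, 196 and 174 CPM, whereas cNK cells had 8.66 and 11.7 CPM. The others called were Tcrg-V3, Tcrg-V4, Tcrg-V6, Tcrg-V7 and Tcrg-C2. Tcrg-V5 (adjusted p = 0.459) and Trdv1 (0.0888) were not called. DESeq2 called 819 genes (5.62% of 14583) and 9 segments here, Trdv1 among them. In edgeR Trdv1 was called without a filter on low counts and in a fit of all 22 libraries.

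Tcrg-V7 and Trdv1 had 0 counts in both cNK libraries, so their fitted sizes depend on the prior count. The median over the 10 segments was 5.32, and 5.28 with these 2 set at 3 counts, against 0.01 over all genes. Over 4 CD3 complex genes it was 3.82. With TCRgd+ILTC1 alone in place of the mean, 75 genes and 7 segments were called, Tcrg-V6 no longer (adjusted p = 0.105, edgeR). Against cNK alone 322 genes and 8 segments were called. Both alternatives were chosen after seeing the data.

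ILC1l and cNK cells had different levels, but they were not tested against each other. Tcrg-V4 had 5.73 and 26.2 CPM in ILC1l cells, against 0.0773 and 0 CPM in cNK cells. Tcrg-C4 had 162 and 220 CPM in ILC1l, against 8.66 and 11.7 CPM in cNK cells. Cd3e in ILC1l replicates 1 and 2, at 85.8 and 458 CPM, and Trac, the α constant segment, at 23.6 and 133 CPM, were higher in the library with more Tcrg-V4. Tcrg-V3, Tcrg-C1, Tcrg-C2 and Trdv1 were higher in that library too. Tcrg-V1, at 6.12 and 6.80 CPM, and Tcrg-C4 changed less. Tcrg-V5, Tcrg-V6 and Tcrg-V7 went the other way, the last from 5.20 to 3.20 CPM. How much RNA of T cells in ILC1l libraries gives to these values was not tested. In bulk samples, fewer cells with a transcript and less of it per cell cannot be told apart.

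In TCRgd+ILTC1 over ILC1l cells edgeR called 0% of genes and no segment, with 936 genes and 7 segments at an unadjusted p under 0.05, and DESeq2 called 142 genes (1.01%) and 7 segments. Tcrg-V1 had 84.9 and 83.7 CPM in TCRgd+ILTC1 cells, against 6.12 and 6.80 CPM in ILC1l cells (log2 fold change 3.70 ± 0.44, adjusted p = 0.159, edgeR; 7.31e-19, DESeq2). Tcrg-V7 had 77.0 and 109 CPM, against 5.20 and 3.20 CPM (4.46 ± 0.82, 0.445; 6.28e-06). Tcrg-C4 was the closest of the 7, at 423 and 413 CPM, against 162 and 220 CPM (1.13 ± 0.30, 0.784; 0.0454). All 3 segments were apart in every library, and the tools differed in the call. The median was 2.67, against −0.04 over all genes and 1.63 over 4 CD3 complex genes.

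In TCRab+ILTC1 over ILC1l cells edgeR called 0% of genes and no segment, with 1072 genes and 5 segments at an unadjusted p under 0.05, and DESeq2 called 257 genes (1.89%) and 3 segments, Tcrg-V1, Tcrg-V3 and Tcrg-C2. Tcrg-C2 had 476 and 443 CPM in TCRab+ILTC1 cells, against 31.6 and 145 CPM in ILC1l cells, and its log2 fold change was 2.37 ± 0.60 (adjusted p = 0.586, edgeR; 0.0158, DESeq2). Tcrg-C4 had 180 and 158 CPM in TCRab+ILTC1 and 162 and 220 CPM in ILC1l cells, with overlap (log2 fold change −0.18 ± 0.30). The median was 1.46, against −0.08 over all genes and 1.95 over 4 CD3 complex genes.

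TCR-NK1.1+ cells were compared with the mean of the 4 TCRb+ populations of their set, TCRb+CD8a+NK1.1+, TCRb+CD8a+PD1+, TCRb+CD8a+PD1-NK1.1- and TCRb+CD8a-NK1.1+. Tcrg-C2 and Tcrg-V3 were called lower and none higher, so 2 of 10, where 9.16% of 15727 genes were called, 2.02% lower and 7.15% higher. Tcrg-C2 had 101 and 129 CPM in TCR-NK1.1+ cells, against 119 to 1264 CPM in the 8 TCRb+ libraries, and was 4.11-fold lower (log2 fold change −2.04 ± 0.26, adjusted p = 0.00242, edgeR). Tcrg-V3 had 7.86 and 10.03 CPM, against 7.62 to 59.7 CPM (−1.49 ± 0.31, 0.0183). Libraries of TCRb+CD8a+PD1-NK1.1- cells overlapped TCR-NK1.1+ cells for both segments. The Tcrg-V3 call was lost without TCR-NK1.1+ replicate 1 (adjusted p = 0.186) and in a fit of all 22 libraries (0.0752).

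Tcrg-C1 and Tcrg-C4 in TCR-NK1.1+ cells, at 123 and 76.1 CPM and 171 and 127 CPM, lay inside the range of the TCRb+ libraries, with log2 fold changes of −0.11 ± 0.31 and −0.06 ± 0.22. The median over the 10 segments was −0.87, against 0.10 over all genes. Receptor genes of T cells were fewer but present: Trac had 90.1 and 164 CPM in TCR-NK1.1+ cells, against 512 to 1158 CPM in the TCRb+ libraries. Of 7 receptor complex genes 6 were called lower and none higher. Of the epithelial genes 15 of 15 tested, and of the myeloid genes 12 of 19, were called higher in TCR-NK1.1+ cells, and their part in these results was not tested.

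Trdv1, the δ variable segment among the 10, was low and uneven. It had 8.75 and 9.69 CPM in TCRgd+ILTC1 cells, against 3.33 and 29.6 CPM in TCRgd+NK1.1- cells, with overlap (log2 fold change −0.89 ± 1.42, adjusted p = 0.828). Without TCRgd+NK1.1- replicate 2 the value was 1.49. Outside γδ cells TCRb+CD8a+PD1+ replicate 2 had the highest level, 9.63 CPM, and its partner library had 0.134 CPM. In no comparison did Trdv1 pass the main test of edgeR, while DESeq2 called it in the γδ mean over ILC1l and cNK, as given above.

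Other δ segments differed in how far they were limited to γδ cells. Of 22 further receptor segments listed, 10 had a row matched by symbol, and Trdc and Tcrg-V2 were not analysed here. Trdv4, whose product pairs with Tcrg-V6 chains, had 23.8 and 41.6 CPM in TCRgd+ILTC1 cells, against 383 and 265 CPM in TCRgd+NK1.1- cells (log2 fold change −3.33 ± 0.82, adjusted p = 0.0794). It was called higher in TCRgd+NK1.1- over TCRb+CD8a+NK1.1- cells, which had 1.52 and 0 CPM (8.69 ± 1.07, 0.0335). The 2 segments thus stood high in the same libraries.

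Trdv4 was also found where no γδ receptor is labelled. It had 46.8 and 24.2 CPM in TCR-NK1.1+, 34.5 and 36.2 CPM in ILC1l and 51.8 and 52.6 CPM in cNK cells, and at most 3.91 CPM in any αβ library. TCR-NK1.1+ cells were called higher than the mean of 4 TCRb+ populations (adjusted p = 0.00914), of which TCRb+CD8a+PD1+ had 0 counts. In TCRgd+ILTC1 over ILC1l its log2 fold change was −0.11 ± 0.75, with overlapping libraries.

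Trdv5 had 53.1 and 80.6 CPM in TCRgd+ILTC1 and 23.9 and 18.2 CPM in TCRgd+NK1.1- cells, and at most 4.50 CPM elsewhere. It overlaps Trdc on the opposite strand, so its value is uncertain, since no source used here says that counting used strand. Trav15-2-dv6-2, a variable segment that α and δ chains share, had 70.4 and 32.7 CPM in TCRgd+ILTC1 and 15.6 and 17.7 CPM in TCRgd+NK1.1- cells, and at most 6.96 CPM elsewhere. Trdv2-2, another δ variable segment, had 10.4 and 19.3 CPM in TCRgd+ILTC1, 12.4 and 17.0 CPM in TCRgd+NK1.1- and 6.49 and 9.61 CPM in cNK cells. Trdv2-1 had 3.75 and 5.26 CPM in TCRgd+ILTC1, 2.08 and 2.59 CPM in TCRgd+NK1.1- and 4.71 and 3.44 CPM in cNK cells, which lay above TCRgd+NK1.1- cells. Of the 10 further segments tested, none was called between the 2 γδ populations, and 3 were called higher in their mean over ILC1l and cNK: Trdj1, Tcrg-C3 and Trav15-2-dv6-2. Tcrg-C3, a γ constant segment, was not limited to γδ cells. Its means were 19.9 CPM in TCRgd+ILTC1 and 22.1 in TCRab+ILTC1, and 11.5 in TCRgd+NK1.1- and 11.7 in TCRb+CD8a+NK1.1- cells.

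**Figure D5:**
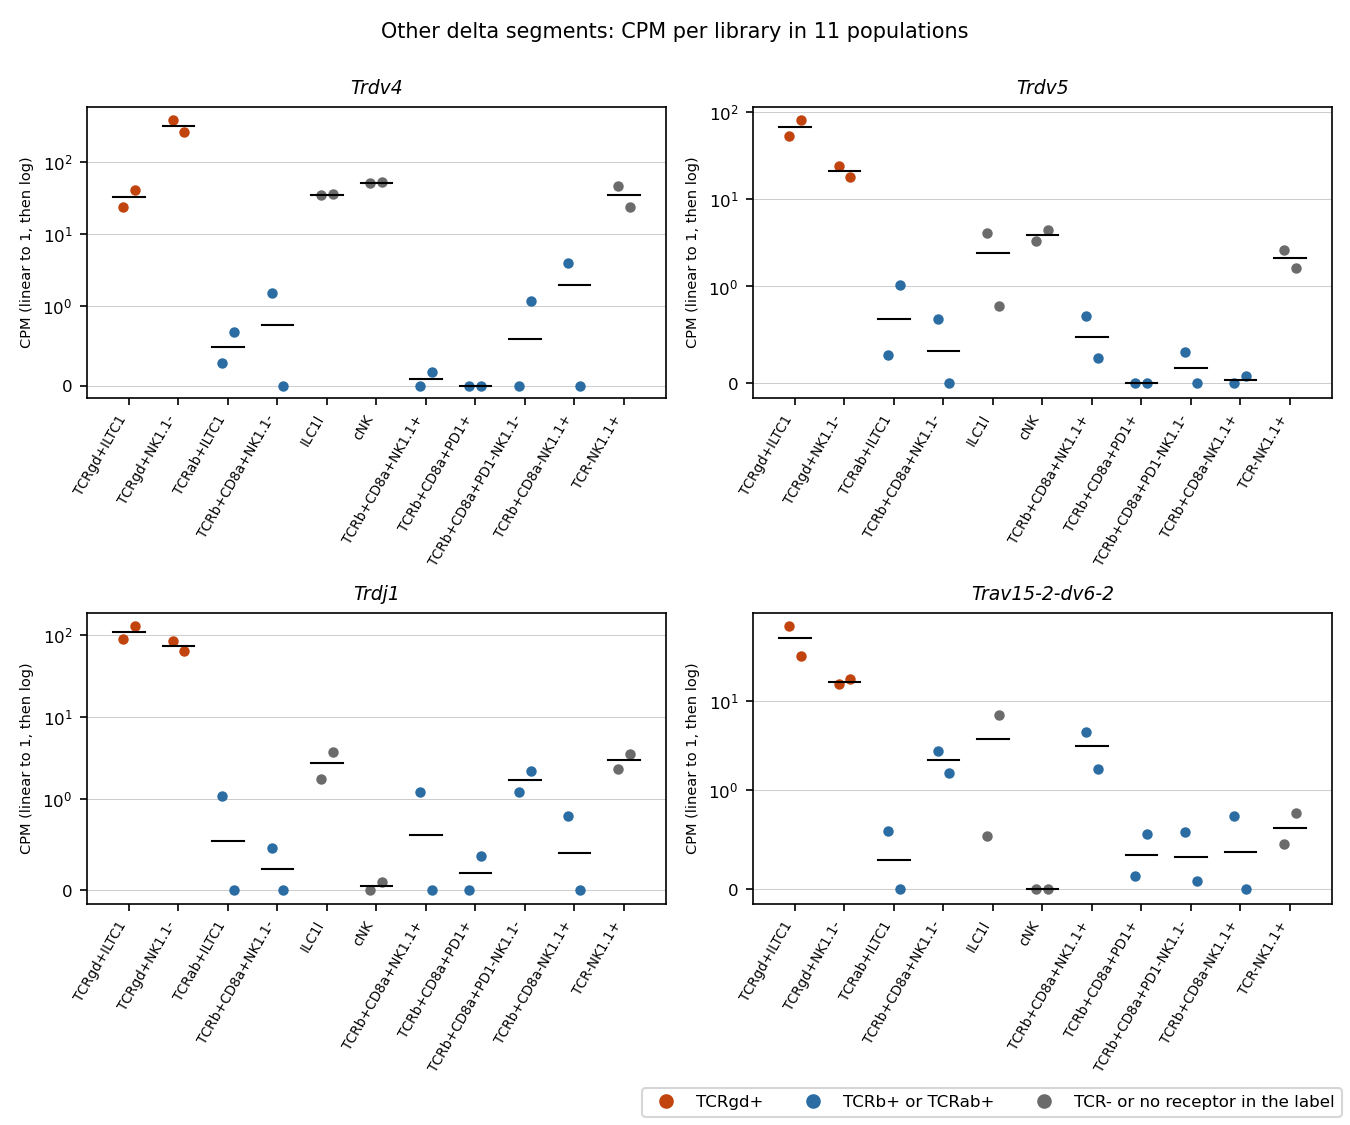
CPM (axis linear up to 1, logarithmic above) of 4 other δ segments in each of 2 libraries (points) of 11 populations, with the population mean as a bar. Trdj1 is at 63.3 to 128 CPM in γδ libraries and at most 3.76 CPM elsewhere, whereas Trdv4 also reaches 51.8 and 52.6 CPM in cNK cells.

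Genes known from γδ lineage and effector programmes were tested beside the segments. Of 25, 4 were called lower in TCRgd+ILTC1 than in TCRgd+NK1.1- cells and 1 higher. Blk, a Src-family kinase used by γδ cells that make interleukin 17, had 0.147 and 0 CPM in TCRgd+ILTC1 cells, against 274 and 298 CPM in TCRgd+NK1.1- cells (adjusted p = 0.00902). Cd163l1, a scavenger receptor of such cells, had 0.147 and 0 CPM, against 562 and 726 CPM (0.012). Sox13 and Sox4, transcription factors of γδ thymocytes, were the others called lower. The one called higher was Tbx21, the T-bet transcription factor of type 1 responses, at 73.9 and 52.3 CPM in TCRgd+ILTC1 cells, against 17.2 and 17.5 CPM in TCRgd+NK1.1- cells (log2 fold change 1.83 ± 0.37, adjusted p = 0.0448). The list's median log2 fold change was −4.78, against −0.13 over all genes, and the myeloid and epithelial sums moved with it as given above.

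Over the mean of ILC1l and cNK, Tbx21 and Id2, a regulator needed by innate lymphoid cells, were called lower in γδ cells (adjusted p = 0.0158 each, edgeR). Of the receptor complex, Cd3d, Cd3e and Cd3g were called higher in that comparison and none was called in TCRgd+ILTC1 over TCRgd+NK1.1- cells. Of the list for receptor rearrangement, Rag1, Rag2 and Dntt, whose products cut and extend the joined segments, had 0 counts in all 4 γδ libraries, and the 3 genes tested there were not called between γδ populations.

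The genes whose mean log2 CPM over the 11 populations was most like that of a segment were listed among 8991 genes with at least 20 CPM in a population. For Tcrg-V6 they were Mitf (Pearson's r = 0.908), Ltb4r1 (0.896), Il17a (0.885), Blk (0.884) and Ppt1 (0.861). Il17a, the cytokine gene, had 121 and 37.6 CPM in TCRgd+NK1.1- cells and at most 0.300 CPM elsewhere. For Tcrg-V1 they were Tcrg-V7 (0.976), Kif22 (0.953), Tpx2 (0.932), Tcrg-C1 (0.931) and Tcrg-V3 (0.905), of which Kif22 and Tpx2 act in mitosis. Tcrg-V4 came closest to Apol7b (0.919), Tcrg-C1 to Cd200r1 (0.937) and Tcrg-C4 to Ccnb2 (0.951), a cyclin of mitosis. These values describe 11 points that share libraries and depth, and a single population can set them, as TCRgd+NK1.1- does for Tcrg-V6.

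Whether the difference between innate-like and NK1.1- cells depended on the receptor was tested with an interaction, the γδ difference (TCRgd+ILTC1 minus TCRgd+NK1.1-) minus the αβ difference (TCRab+ILTC1 minus TCRb+CD8a+NK1.1-). Tcrg-V6 was called, as 1 of 10 segments and lower, where 0.0535% of 16828 genes were called, 0.0119% lower and 0.0416% higher (adjusted p = 0.041, edgeR). In γδ cells it was 37.5-fold lower in TCRgd+ILTC1, whereas in αβ cells it had 2.29 and 4.54 CPM in TCRab+ILTC1 and 0 counts in TCRb+CD8a+NK1.1- libraries, so the size of the interaction has no fixed value. The call was lost without either TCRgd+ILTC1 library (adjusted p = 0.179 and 0.239), without either TCRb+CD8a+NK1.1- library (0.104 and 0.153), or without TCRab+ILTC1 replicate 2 (0.063). It was also lost in a fit of only the populations compared (0.138) and with the replicate number as a block (0.0685). The median over the 10 segments was −0.45, also with Tcrg-V6 at its bound, against −0.11 over all genes. For Tcrg-V1 the interaction was −0.04 ± 0.56 (adjusted p = 1), which leaves room for a difference of either sign.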

How the data were processed

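After digestion of tumours with collagenase and DNase, a Percoll step and flow sorting, RNA was amplified as SMARTer cDNA, per the labels' protocols. The deposited table holds whole counts per Ensembl gene for 22 libraries, which the authors made with BWA 0.7.5a, Picard and HTSeq with the builds mm9 and NCBIM37 named, per the submitters' processing notes. Counting settings, strand included: not given in the sources used here. Of 37620 entries, 32897 (99.02% of counts) matched a GENCODE M21 symbol. That annotation is of build GRCm38, so it gave names, lengths and sequences but no coordinates.

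EdgeR 4.0.16 (R 4.3.3) served for the tests on counts (quasi-likelihood tests, filterByExpr for low counts, TMM factors, a threshold of 0.05 on p-values adjusted after Benjamini and Hochberg). The first 10 and the other 12 libraries had a fit each, with a mean for every population, over 15727 and 16828 genes. All 10 segments passed the filter in both fits. DESeq2 1.42.0 was an alternative, beside RLE scaling, no filter, a replicate block, other sets of libraries and leaving out each library. The titles ILC1I and ILC1l were taken as 1 population. Sequences were compared with Biopython 1.88. The segments, the other lists and the comparisons were chosen with earlier results of these data known. All segments are named, with genes of 4 fixed lists and the 5 genes most like a segment. The test was tested on simulated data for TCRgd+ILTC1 over TCRgd+NK1.1-, with 50 genes changed at each size. It called 0% of genes changed by a log2 value of 1, 42% at 2, 94% at 4 and 100% at 6, and 4 unchanged genes. Each simulated gene had the spread fitted for its level, the same in all populations. The rates therefore do not cover genes or populations that vary more. Differences near a log2 value of 1 could thus rarely be called. The result of 1 gene of these lists is not reported here.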

Additional observations from a re-analysis of the deposited data

Results flagged for a closer look

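Tcrg-V6 was picked out because its difference between innate-like and NK1.1- cells was not the same in γδ and αβ cells by a test of the difference itself. The fitted interaction was −13.77 on the log2 scale (adjusted p = 0.041, edgeR). Its size depends on the prior count, because TCRb+CD8a+NK1.1- libraries had 0 counts of Tcrg-V6, and the libraries whose removal ends the call are given above. The call was also lost with the replicate number as a block (adjusted p = 0.0685) and in a fit of only the populations compared (0.138).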

How the results depend on the processing

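Calls depended more on the tool and on single libraries than the sizes did, and all 34 changes of sign were in segments that the main test did not call. For TCRgd+ILTC1 over TCRgd+NK1.1- (268 genes and 1 segment called), no filter on low counts gave 1786 genes and 3 segments, DESeq2 1886 and 2, a fit of only the populations compared 172 genes, and a fit of all 22 libraries 626 and 2. For TCRgd+ILTC1 over TCRab+ILTC1 (0 and 0), no filter gave 154 and 2 and DESeq2 77 and 3. For TCRgd+NK1.1- over TCRb+CD8a+NK1.1- (13 and 2), RLE scaling gave 6 and 1, no filter 621 genes, DESeq2 715 and 5, only the populations compared 0 and 0, and all libraries 151 genes. For TCRgd+ILTC1 over ILC1l (0 and 0), no filter gave 197 and 6, DESeq2 142 and 7, only the populations compared 1 gene, and all libraries 4 and 2. For the γδ mean over ILC1l and cNK (173 and 8), no filter gave 821 genes, DESeq2 819 and all libraries 331. Chosen after seeing the data, cNK alone gave 322 genes and TCRgd+ILTC1 alone 75. For TCRab+ILTC1 over ILC1l (0 and 0), no filter gave 344 and 3, DESeq2 257 and 3, and all libraries 9 genes. For TCR-NK1.1+ over TCRb+ cells (1441 and 2), no filter gave 3126 genes, DESeq2 2227, and all libraries 1 segment. For the interaction (9 and 1), no filter gave 479 genes, DESeq2 459, only the populations compared 0 and 0, and all libraries 31 genes.

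Leaving out each library gave, in the same order, 7 to 804 genes and 0 to 1 segments, 0 to 297 and 0, 2 to 449 and 0 to 2, 0 to 1 and 0, 69 to 623 and 8 to 9, 0 to 324 and 0, 294 to 3043 and 1 to 3, and 0 to 291 and 0 to 1. The lone library left was assumed to vary like the others. The highest counts came without TCRgd+NK1.1- replicate 1 (804, 449 and 623), TCRab+ILTC1 replicate 1 (297, 324 and 291) and TCRb+CD8a-NK1.1+ replicate 1 (3043). The lowest came without TCRgd+ILTC1 replicate 2 (7), TCRb+CD8a+NK1.1- replicate 2 (2), ILC1l replicate 1 (69) and TCR-NK1.1+ replicate 1 (294).

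Replicate numbers were not taken to pair the samples, since not every pair of populations had a correlation over 0.1: deviations of same-numbered libraries correlated at 0.0545 to 0.227 among the first 10 libraries, where 8 of 10 pairs were over 0.1, a hint of shared deviation there, and −0.0406 to 0.123 among the other 12, where 1 of 15 was. With the replicate number as a block, 0 segments were called in the interaction (Tcrg-V6 adjusted p = 0.0685), Tcrg-V6 was −0.033 in TCRgd+ILTC1 over TCRab+ILTC1 and Trdv1 was 0.91 in TCRab+ILTC1 over ILC1l, and no other segment's call changed.

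Other log2 values that turned sign were small or uncertain. Tcrg-V5 in TCRab+ILTC1 over ILC1l was −0.021 with RLE scaling and −0.022 with DESeq2. In TCR-NK1.1+ over TCRb+ cells, Tcrg-V6 was 0.011 with RLE and 0.027 with DESeq2, and Tcrg-C4 was 0.0027 and 0.0013. With a library left out, Trdv1 ranged from −1.74 to 1.49 in TCRgd+ILTC1 over TCRgd+NK1.1-, and Tcrg-V6 from −0.37 to 0.62 in TCRgd+ILTC1 over TCRab+ILTC1. In TCRgd+NK1.1- over TCRb+CD8a+NK1.1-, Tcrg-V3 ranged from −0.42 to 0.026 and Tcrg-C4 from −0.024 to 0.69. In TCRab+ILTC1 over ILC1l, Tcrg-V5 ranged from −2.93 to 7.06, Tcrg-C4 from −0.38 to 0.044 and Trdv1 from −0.99 to 2.37. In TCR-NK1.1+ over TCRb+ cells, Tcrg-V4 ranged from −0.57 to 0.28, Tcrg-V6 from −0.63 to 0.91, Tcrg-C1 from −0.47 to 0.17, Tcrg-C4 from −0.26 to 0.11 and Trdv1 from −1.91 to 0.63. In the interaction, Tcrg-V1 ranged from −0.50 to 0.33, Tcrg-V7 from −0.47 to 1.80 and Trdv1 from −3.47 to 0.55. The cause of these changes was not tested. Depth limits the low segments, since 3 counts equalled 0.146 to 0.312 CPM and many levels of Tcrg-V5 and Trdv1 rest on few counts.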
